A study of Mus musculus with 6 samples.

Results

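The genes described here, 10 of the 23930 in the deposited table, were chosen by name as components of the vascular basement membrane: the type IV collagen chains Col4a1 and Col4a2, the type XVIII collagen chain Col18a1, the laminin chains Lama5, Lamb1, Lamb2 and Lamc1, nidogen-1 (Nid1), perlecan (Hspg2) and the collagen-binding glycoprotein Sparc. Transcripts were read in sorted CD31-positive cells of tumours that LLC cells, the Lewis lung carcinoma line of the mouse, had formed under the skin of C57/Bl6 mice. The tumours were taken 2 weeks after injection. In 3 libraries (replicates 1, 2 and 3) the injected cells were controls, and in 3 libraries (replicates 4, 5 and 6) they overexpressed BMP9, a bone morphogenetic protein that acts on endothelium through the receptor ALK1. The sources used here do not give the promoter or vector of the overexpression, the kind of control cell, the age of the mice or any pooling of animals. The study's title concerns the normalization of tumour blood vessels, of which the basement membrane is one layer. Whether each library stands for its own animal is not said in the labels, and p-values then measure the spread between these libraries, which may be technical.

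A basement membrane is the thin sheet of matrix on which endothelium rests and in which pericytes lie. Laminin trimers, each of an alpha, a beta and a gamma chain, form 1 network on the cell surface, and type IV collagen trimers form another that is held together by covalent crosslinks. Nidogen and perlecan bridge the networks, collagen XVIII carries the endostatin fragment, and Sparc binds collagen during its deposition. In tumours this sheet is known to be irregular in thickness and loosely attached.

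Col4a1 (chromosome 8, 11198423 to 11312826, minus strand) and Col4a2 (chromosome 8, 11312805 to 11449287, plus strand) lie head to head on the mm10 build, and their annotated transcripts overlap by 22 bases at the start sites. The stretch is shown because these chains assemble into the same trimer and are read outward from this shared point. It is chr8:11312801-11312830 of GRCm38.p6 from RefSeq, on the plus strand, with the overlap in capitals.
Col4a1 and Col4a2 start sites: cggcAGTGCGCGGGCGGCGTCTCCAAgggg
The overlap holds the letters GGGCGG, a GC box, on the plus strand. Within windows of 250 bases before to 50 bases after a RefSeq start, GGGCGG was found on either strand in 35.7% of 32851 mouse windows and in 7 of the 10 windows that matched 9 of the genes. CCAAT was found in 37.4% of all windows and in 5 of those 10, the windows of Col4a1 and Col4a2 among them. These are matches of letters only.

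The values are RPM, the reads of a gene scaled to the same total in every library, from a panel that amplifies 1 short segment per gene. Amplification differs between segments, so a level is compared here between libraries and not between genes. Libraries held 1321762 to 28380957 reads, and 3 reads, the limit that a count of 0 allows, corresponded to 0.106 to 2.27 RPM (counting error only). Control replicates and BMP9 replicate 4 carry an earlier run time stamp and BMP9 replicates 5 and 6 a later one, under which there is no control library. Most endothelial markers apart from Pecam1, the gene of CD31, gave few RPM on this panel, where a level also depends on the amplified segment. The other 19 of 20 endothelial markers summed to 107 ± 32.6 RPM in controls against 124 ± 9.7 RPM with BMP9 (SD, n = 3 each). Of these sums Eng gave 48.2 and 78.4 RPM and Flt1 5.36 and 20.5 RPM. Most of the remaining markers had a lower mean with BMP9, Vwf, Cldn5, Erg and Sox17 excepted. The similar sums therefore do not show that endothelial markers were level between groups. With Pecam1 the sums were 555 ± 104 and 428 ± 58.9 RPM. Eng and Flt1 were above all controls in every BMP9 library. Below all controls in every BMP9 library were Pecam1 and, on fewer reads, Kdr, Esam, Egfl7, Robo4 and Ptprb. The same held for 31.2% of all tested genes. The other endothelial markers overlapped between groups. Sox17 was at 0 in 5 of the 6 libraries, and 16 to 19 of the 20 markers had reads in control and 11 to 20 in BMP9 libraries. The 14 macrophage markers summed to 6059 ± 1346 and 20979 ± 3103 RPM and the 14 T and NK cell markers to 6022 ± 153 and 1113 ± 330 RPM, so the make-up of the libraries differed between groups. In such bulk samples fewer cells of a type and less RNA per cell cannot be told apart.

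Transcripts of 4 of the 10 genes were lower in BMP9 overexpression libraries, and none was called higher, also at an unadjusted p under 0.05 (0 higher and 5 lower with limma) or with edgeR or DESeq2 (0 each). Sparc, Col4a2, Col4a1 and Lama5 fell by 1.71, 1.49, 1.40 and 1.03 in log2(RPM + 1), a scale that understates the change of a low gene. Differences of Col18a1, Lamc1, Hspg2 and Nid1 did not pass the test, and Lamb1 and Lamb2 were below the filter of 5 RPM in 3 libraries and were not tested. The test was limma's, adjusted by Benjamini-Hochberg over all 9460 tested genes at a threshold of 0.05. By this rule 35.2% of all tested genes were called, 22.5% lower and 12.7% higher. The 3 BMP9 libraries lay below all 3 control libraries for Sparc, Col4a2, Lama5 and Col18a1, as they did for 31.2% of all tested genes. The median log2 fold change was -0.92 over the 8 tested members and -0.24 over all tested genes. Lama5 passed the filter through the control libraries and 1 BMP9 library, so these summaries lean towards lower values. The members were also chosen with earlier results of these data known, so the medians only describe them. With no filter on low values the median was -0.61 over all 10 genes, against -0.04 over 18274 genes. TMM factors, which scale libraries to a common core of genes, moved the median of all genes to 0.06 and that of the 8 members to -0.65.

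**Figure D1:**
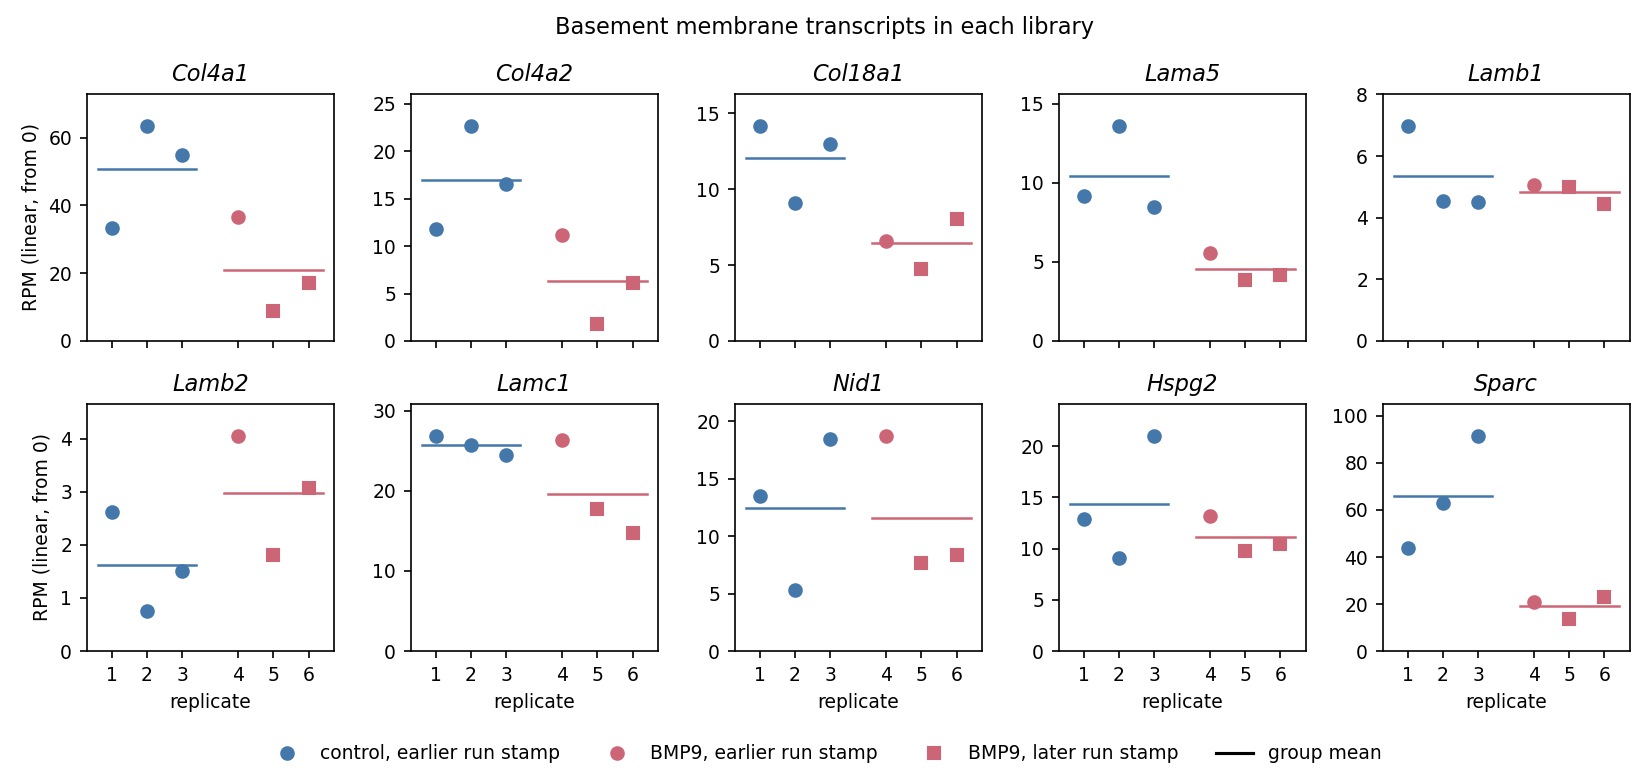
RPM of the 10 basement membrane genes in each library (linear axis from 0, a scale of its own per gene), with control replicates 1 to 3 in blue, BMP9 overexpression replicates 4 to 6 in red, squares for the later run time stamp and lines for group means. Sparc lies between 13.6 and 22.8 RPM in BMP9 libraries and between 43.9 and 91.5 RPM in controls, whereas Col4a1 of BMP9 replicate 4 (36.5 RPM) lies within the control range.

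Summed over the 10 genes, control replicates 1, 2 and 3 reached 175, 217 and 255 RPM, and BMP9 replicates 4, 5 and 6 reached 148, 74.8 and 99.3 RPM. The sums of the groups did not overlap, and the means were 216 ± 39.7 and 107 ± 37.2 RPM (SD, n = 3 each). Without Sparc, Col4a1 and Col4a2 the sums were 86.2, 68.1 and 91.5 RPM among controls and 79.5, 50.6 and 53.3 RPM in BMP9 libraries, and these overlapped. Reads per gene and library ran from 1, for Lamb2 in control replicate 2, to 647, for Sparc in BMP9 replicate 6.

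Sparc (chromosome 11, 55394500 to 55423183, minus strand), a counter-adhesive matrix protein that endothelial, perivascular and fibroblastic cells make, had 43.9, 62.8 and 91.5 RPM in the controls (replicates 1, 2 and 3). In BMP9 replicates 4, 5 and 6 it had 20.8, 13.6 and 22.8 RPM. Every BMP9 library was below every control library. The means were 66.1 ± 24 and 19.1 ± 4.83 RPM (SD, n = 3 each), 3.47-fold lower, and the log2 fold change was -1.71 (SE 0.34, 95% CI -2.43 to -0.99, limma adjusted p = 0.0013). Its call held in all 18 alternatives run, with log2 fold changes of -1.97 to -1.41 and adjusted p-values of 5.1e-05 to 0.023. Among them were TMM factors (-1.41) and the earlier run time stamp alone (-1.56), where BMP9 replicate 4 alone stands against the 3 controls. The stamp as a covariate gave the same fold change, as the later stamp holds no control. These 2 alternatives are thus 1 comparison without replication in the BMP9 group.

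Col4a1, the alpha 1 chain of type IV collagen, had 33.4, 63.6 and 55.0 RPM in the controls (replicates 1, 2 and 3). BMP9 replicates 4, 5 and 6 had 36.5, 8.84 and 17.2 RPM. BMP9 replicate 4 was above control replicate 1, and BMP9 replicates 5 and 6 were below all controls. The means were 50.6 ± 15.6 and 20.8 ± 14.2 RPM (SD, n = 3 each), and the log2 fold change was -1.40 (SE 0.43, 95% CI -2.31 to -0.49, limma adjusted p = 0.019). Col4a2, the alpha 2 chain, was at 11.8, 22.7 and 16.5 RPM in control and at 11.1, 1.81 and 6.06 RPM in BMP9 libraries, in the same replicate order. BMP9 replicate 4 lay just under the lowest control, and replicate 5 rested on 8 reads. The log2 fold change of Col4a2 was -1.49 (SE 0.48, 95% CI -2.50 to -0.47, limma adjusted p = 0.025).

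The type IV collagen calls depended on the libraries of the later run time stamp and also on single controls. Within the earlier stamp, where BMP9 replicate 4 alone stands against the 3 controls and is assumed to vary like them, the log2 fold changes of Col4a1 and Col4a2 were -0.41 and -0.52 (limma adjusted p = 0.50 and 0.45). They were -0.93 and -0.91 without BMP9 replicate 5 (limma adjusted p = 0.085 and 0.11) and -1.38 and -1.58 without BMP9 replicate 6 (0.059 and 0.055). Without control replicate 2 they were -1.22 and -1.26 (limma adjusted p = 0.083 and 0.11), and without control replicate 3 -1.32 and -1.48 (0.056 and 0.058). Both calls held without control replicate 1 or BMP9 replicate 4. Over all alternatives, adjusted p ranged from 0.00022 to 0.52 for Col4a1 and from 0.0017 to 0.50 for Col4a2, and all of the differences were negative. Batch and biology of replicates 5 and 6 cannot be told apart, since the later stamp holds no control. Calls were fewer under several other settings, though not under all. With array weights 6 of 8 were lower, where 3351 of all 9460 tested genes were. With TMM factors 1 of the 8 tested members was lower (Sparc), against 13.4% of all genes. With edgeR on recovered reads it was 1 of 8 (Sparc), against 15% of all genes, and with DESeq2 2 of 8 (Sparc and Col4a1), against 16.3%. Within the earlier stamp it was 1 of 8 (Sparc), against 18.3%.

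**Figure D2:**
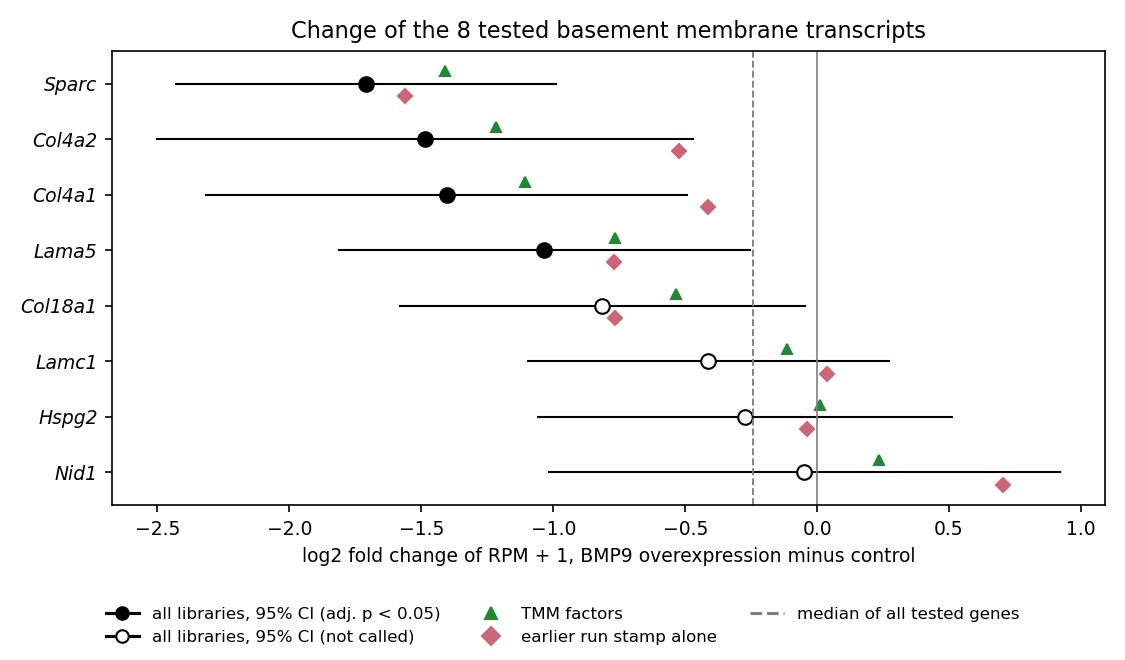
Log2 fold change of RPM + 1, BMP9 overexpression minus control, for the 8 tested genes (horizontal axis), with 95% confidence intervals from limma, filled circles for adjusted p under 0.05, triangles for TMM factors and diamonds for the earlier run time stamp alone. Sparc stays near its value under each setting (-1.71, -1.41 and -1.56), while Col4a1 goes from -1.40 to -0.41 within the earlier stamp.

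The read ratio of the 2 type IV collagen chains ran from 2.8 to 4.88 over the 6 libraries. Its test between groups could not reach the threshold with 3 against 3 libraries, so it does not show that the proportion is constant. Col4a1 reads exceeded Col4a2 reads 2.83, 2.8 and 3.33 times in control replicates 1, 2 and 3 and 3.27, 4.88 and 2.84 times in BMP9 replicates 4, 5 and 6. The exact 95% intervals of all 6 ratios held the value of control replicate 3, and that of BMP9 replicate 5 was wide (2.25 to 12.1). The absolute ratio depends on the amplified segments, and only its differences between libraries are read here. The log2 difference of the ratio between groups was 0.26 (exact two-sided permutation p = 0.5, adjusted p = 0.62 over 5 ratios chosen after the values were seen, where 0.1 is the smallest p that 3 against 3 libraries allow).

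Of the laminin chains, Lama5 (chromosome 2, 180176373 to 180225859, minus strand), the alpha 5 chain of mature vessels, had 9.16, 13.6 and 8.50 RPM in the controls (replicates 1, 2 and 3). In BMP9 replicates 4, 5 and 6 it was at 5.57, 3.86 and 4.16 RPM. The groups did not overlap, and the log2 fold change was -1.03 (SE 0.37, 95% CI -1.81 to -0.25, limma adjusted p = 0.039). This rested on 11 to 118 reads a library. The call held in 5 of 17 alternatives, with log2 fold changes of -1.16 to -0.68 and adjusted p-values of 0.0041 to 0.26. It was lost when any single library other than BMP9 replicate 4 was left out.

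Lamc1 (chromosome 1, 153218922 to 153332786, minus strand), the gamma 1 chain found in most laminins, was at 26.8, 25.7 and 24.5 RPM in control and at 26.3, 17.7 and 14.8 RPM in BMP9 libraries. Again BMP9 replicate 4 lay within the control range and replicates 5 and 6 below it. The log2 fold change of -0.41 (SE 0.32, 95% CI -1.10 to 0.27) missed the threshold (limma adjusted p = 0.34), though with array weights it passed (-0.69, adjusted p = 0.018). Lamb1 (chromosome 12, 31265234 to 31329644, plus strand), the beta 1 chain, was at 6.98, 4.54 and 4.50 RPM in control and 5.07, 4.99 and 4.44 RPM in BMP9 libraries. These values overlapped almost entirely. Lamb2 (chromosome 9, 108479736 to 108490530, plus strand), the beta 2 chain, was at 2.62, 0.757 and 1.5 RPM in control and 4.05, 1.81 and 3.06 RPM in BMP9 libraries. It was the only member with a higher mean in the BMP9 group, on 1 to 12 reads a library in control, and its groups overlapped. With no filter on low values the log2 fold changes of Lamb1 and Lamb2 were -0.10 and 0.62 (limma adjusted p = 0.84 and 0.39).

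Laminin chains that share a trimer were compared within each library. Lama5 reads were 0.341, 0.529 and 0.347 times Lamc1 reads in control replicates 1, 2 and 3 and 0.212, 0.218 and 0.282 times in BMP9 replicates 4, 5 and 6. These ratios did not overlap between groups, and the log2 difference was -0.76 (exact two-sided permutation p = 0.1, the smallest possible, adjusted p = 0.33). The exact 95% intervals of single libraries overlapped, for example 0.188 to 0.613 times Lamc1 in control replicate 3 and 0.0995 to 0.41 times in BMP9 replicate 4. The Lamb1 to Lamc1 ratio was 0.176 to 0.26 in control and 0.192 to 0.301 in BMP9 libraries (log2 difference 0.32, exact permutation p = 0.2, adjusted p = 0.33). The Lamb2 to Lamb1 ratio was 0.167 to 0.375 and 0.364 to 0.8 (log2 difference 1.09, exact permutation p = 0.2, adjusted p = 0.33). None of the ratios differed between groups beyond the adjusted threshold, which 3 against 3 libraries cannot reach.

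**Figure D3:**
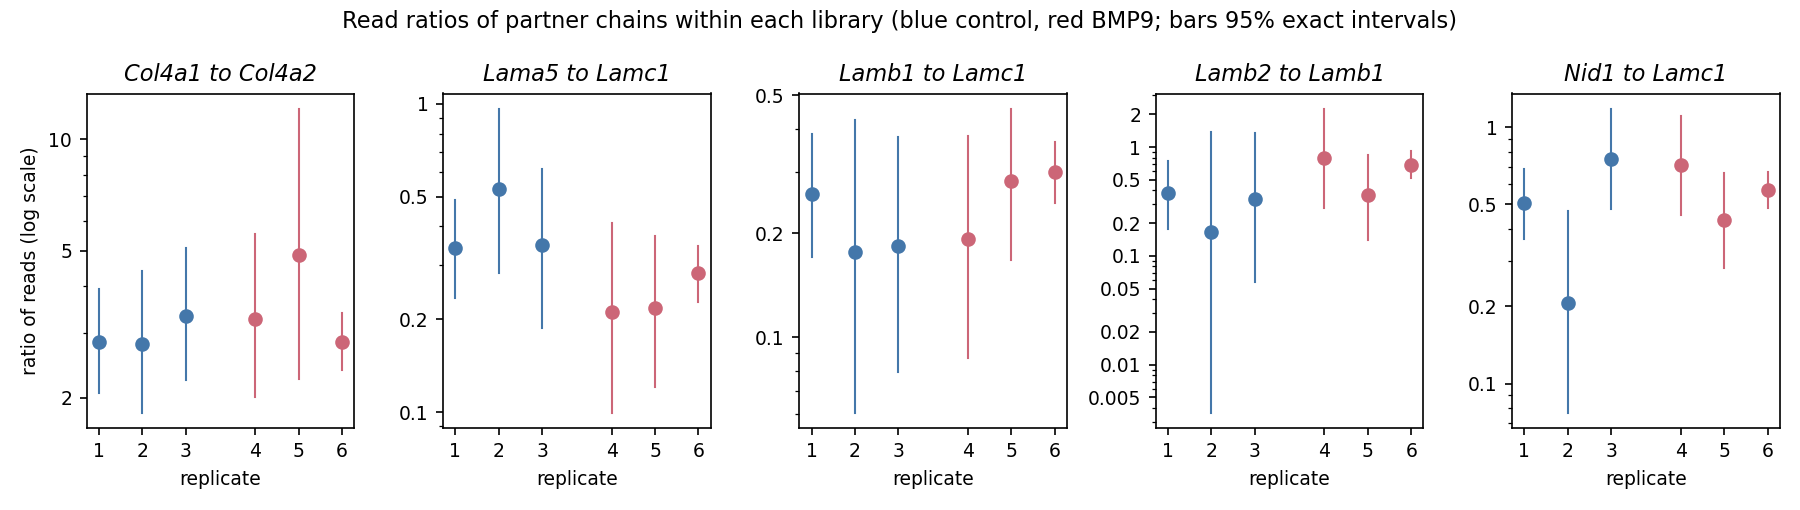
Ratio of reads of partner genes within each library (log axis), control replicates 1 to 3 in blue and BMP9 overexpression replicates 4 to 6 in red, with exact 95% binomial intervals. The Col4a1 to Col4a2 ratio stays between 2.8 and 4.88, and the Lama5 to Lamc1 ratio is 0.212 to 0.282 in BMP9 libraries and 0.341 to 0.529 in controls.

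The linker proteins varied as much within groups as between them. Nid1 (chromosome 13, 13437551 to 13512269, plus strand), which joins laminin to type IV collagen, had 13.5, 5.30 and 18.5 RPM in the controls (replicates 1, 2 and 3). BMP9 replicates 4, 5 and 6 had 18.7, 7.71 and 8.39 RPM. The highest value was that of BMP9 replicate 4 and the lowest that of control replicate 2, and the log2 fold change was -0.05 (SE 0.45, 95% CI -1.02 to 0.92, limma adjusted p = 0.95). Its sign was negative in 7 of 17 alternatives. The Nid1 to Lamc1 ratio was 0.206 to 0.755 in control and 0.436 to 0.712 in BMP9 libraries (log2 difference 0.39, exact permutation p = 0.7, adjusted p = 0.7). Hspg2 (chromosome 4, 137468769 to 137570630, plus strand), the heparan sulfate proteoglycan perlecan, was at 12.9, 9.08 and 21.0 RPM in control and 13.2, 9.75 and 10.4 RPM in BMP9 libraries. All BMP9 values lay within the control range (log2 fold change -0.27, SE 0.37, 95% CI -1.06 to 0.51, limma adjusted p = 0.59). The interval of Hspg2 includes the log2 fold change of Lama5 (-1.03), and that of Nid1 nearly reaches it.

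Col18a1 (chromosome 10, 77052178 to 77166548, minus strand), the source of endostatin, was at 14.2, 9.08 and 13 RPM in control and 6.58, 4.76 and 8.03 RPM in BMP9 libraries. All BMP9 libraries were below all controls, and BMP9 replicate 4 took part in this, as it did for Sparc, Lama5 and, narrowly, Col4a2. The log2 fold change of -0.81 (SE 0.36, 95% CI -1.58 to -0.04) did not pass after adjustment (limma adjusted p = 0.093), and passed with array weights (-0.72, adjusted p = 0.032). Within the earlier run time stamp it was -0.77 (adjusted p = 0.25).

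Most other genes of the basement membrane were below the filter in the sorted cells. Of 26 further components, 4 passed the filter. Of these, 1 fell and none rose, against 22.5% and 12.7% of all tested genes (limma). Also 0 were higher at an unadjusted p under 0.05 and with edgeR and DESeq2. Lamb3 and Npnt, 2 of these 4, reached 5 RPM in control libraries only, so the filter could admit them just as genes of higher level in controls. The median log2 fold change was -0.74 over the 4, and -0.15 over the 22 with reads when no filter was used. Lamb3, the beta chain of an epithelial laminin, fell from 10.4 ± 1.23 to 2.27 ± 0.262 RPM (SD, n = 3 each), by 1.80 on the log2 scale (SE 0.36, limma adjusted p = 0.0015, and 0.018 with no filter). Col15a1, a collagen related to Col18a1, was at 4.36, 11.3 and 18.5 RPM in control and 13.7, 4.31 and 5.67 RPM in BMP9 libraries, which overlapped (-0.44, limma adjusted p = 0.52). Lama4, the other endothelial alpha chain, was at 1.75, 5.30 and 5.50 RPM and 5.07, 0.454 and 2.75 RPM (-0.59, limma adjusted p = 0.41). Npnt, the integrin ligand nephronectin, had a log2 fold change of -0.90 (limma adjusted p = 0.11). Below the filter, the nidogen paralogue Nid2 was at 2.4, 3.03 and 4 RPM in control and 15.7, 4.76 and 4.33 RPM in BMP9 libraries, above controls in each. Ntn4 (means 2.11 and 6.93 RPM) and Smoc1 (0.637 and 1.24 RPM) were also above controls in each. Spock2 (5.73 and 1.93 RPM) was below controls in each. These untested genes were named after their values were seen. Col4a4, Col4a5, Lama1 and Lamc3 had no reads in any library, which allows up to 0.106 RPM in BMP9 replicate 6.

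Receptors for the basement membrane changed in both directions. Of 13 tested, 5 rose and 3 fell, against 12.7% and 22.5% of all tested genes, so the number lower was near that share. The median was -0.31, and -0.01 with TMM factors. The genes that rose were Sdc4, Sdc3 and Sdc1, cell-surface heparan sulfate proteoglycans, Lgals3, a lectin abundant in macrophages, and Itga6, the laminin-binding integrin alpha 6. Sdc4 went from 165 ± 28.4 to 757 ± 202 RPM (log2 fold change 2.17, SE 0.28, limma adjusted p = 3.8e-05). Those that fell were Itga2, the alpha chain of a collagen receptor, the collagen receptor kinase Ddr1 and the phosphatase Ptprf. Ddr1 reached 5 RPM in control libraries only, and so entered the test through the group where it was high. Itga2 went from 72.7 ± 15.5 to 22.1 ± 5.73 RPM (-1.68, SE 0.31, limma adjusted p = 7.7e-04). Itgb1, the beta 1 chain that Itga2 and Itga6 pair with, was at 1312.5 ± 313 and 769 ± 188 RPM (-0.78, limma adjusted p = 0.053). With TMM factors Itga2 was the 1 receptor still lower.

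Proteases that can cut the sheet, and their inhibitors, were mostly higher. Of 13 tested, 10 rose and 1 fell, against 12.7% and 22.5% of all tested genes, with a median of 1.71. Mmp14, the membrane-anchored protease that activates Mmp2, went from 149 ± 55.3 to 875 ± 48.3 RPM (log2 fold change 2.62, SE 0.29, limma adjusted p = 1.7e-05). Mmp2 itself was at 0 to 1 RPM in control and 0.506 to 0.705 RPM in BMP9 libraries and was not tested. The lysosomal cathepsin Ctsl went from 151 ± 10.8 to 1804 ± 737 RPM (3.49, SE 0.30). The inhibitor Timp2 rose as well, by 1.71. Mmp9, a gelatinase that degrades type IV collagen, fell from 78.5 ± 25.0 to 25.5 ± 6.15 RPM (-1.56, SE 0.32, limma adjusted p = 0.0016). Macrophage markers, which were higher in the same libraries (sums above), moved with this group, and their part in it was not tested.

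Genes of collagen folding and crosslinking did not fall with the type IV collagen chains. Of 10 tested, 3 rose and none fell (median 0.52), against 12.7% and 22.5% of all tested genes. At an unadjusted p under 0.05 in limma 1 was lower, and 6 were higher and 0 lower with TMM factors, edgeR or DESeq2. P4ha1, a catalytic subunit of prolyl hydroxylase, went from 78.6 ± 9.04 to 251 ± 18.7 RPM (log2 fold change 1.66, SE 0.25, limma adjusted p = 1.7e-04), and the lysyl hydroxylases Plod1 and Plod3 rose by 1.42 and 0.96. Serpinh1, the collagen chaperone HSP47, was at 2.27 to 4 RPM in control and 2.50 to 2.71 RPM in BMP9 libraries and was not tested. Pxdn, the enzyme that crosslinks type IV collagen, was at 0 to 1 and 0 to 0.493 RPM. Of 9 tested genes of the interstitial matrix, 5 rose and none fell (median 1.22; also 0 lower at an unadjusted p under 0.05 and with edgeR and DESeq2), with Thbs1, the angiogenesis inhibitor thrombospondin-1, going from 341 ± 121 to 4796 ± 3016 RPM (3.68, SE 0.41) and Fn1, fibronectin, from 1196 ± 341 to 4467 ± 918 RPM (1.92, SE 0.32; limma adjusted p = 1.5e-05 and 3.2e-04). Of the 5, Dcn reached 5 RPM in BMP9 libraries only, and the median was 0.40 over all 18 genes of the list with no filter. Macrophages and platelets also carry fibronectin and thrombospondin-1 transcripts, and their part in the result was not tested. The 8 platelet markers summed to 102 ± 30.8 RPM in controls and 712 ± 123 RPM with BMP9 (SD, n = 3 each). Most of this difference came from 1 gene, Pf4, with means of 49.1 and 619 RPM. Itgb3 went the other way, from 44.4 to 23.2 RPM, and Gp6 had no reads, so the sum does not stand for the list as a whole.

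**Figure D4:**
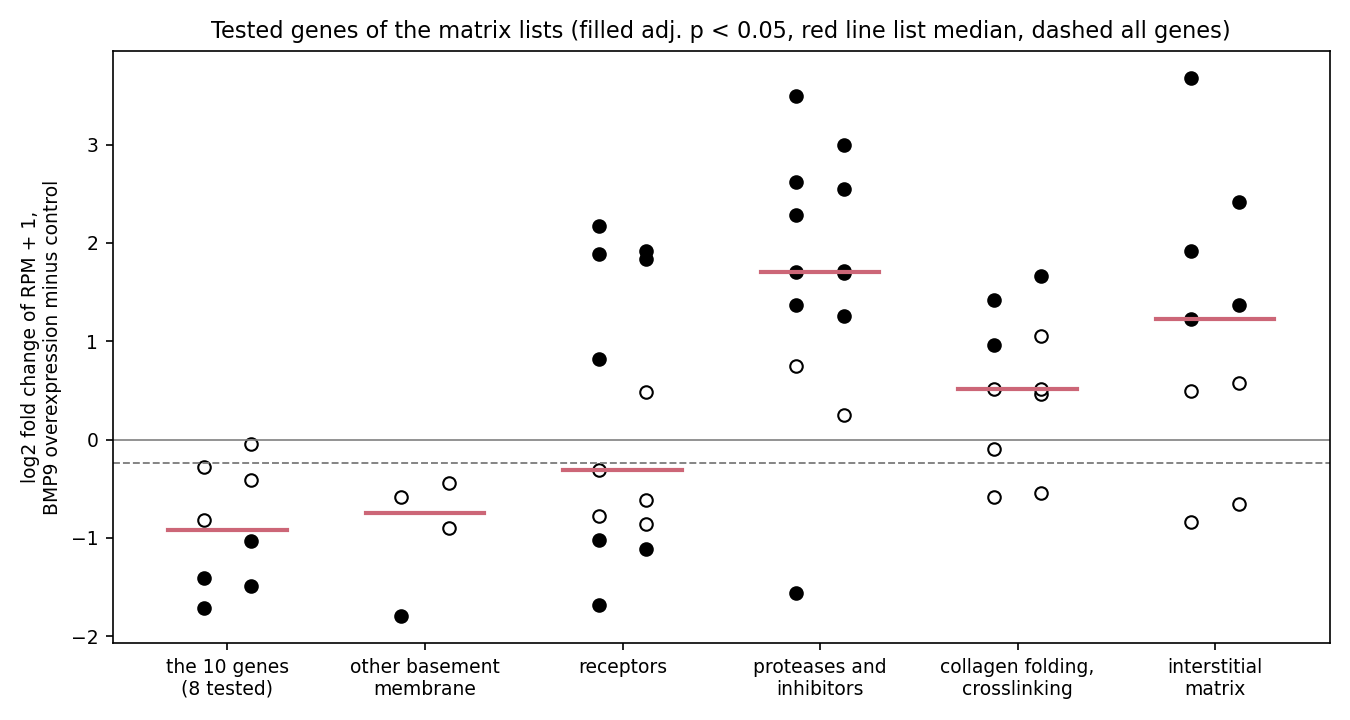
Log2 fold change of RPM + 1, BMP9 overexpression minus control, for tested genes of the 10-gene set and of 5 related lists, with filled points for adjusted p under 0.05, red lines for list medians and a dashed line for the median of all tested genes (-0.24). The 8 tested basement membrane genes lie between -1.71 and -0.05, and 10 of 13 proteases and inhibitors are called higher, against 12.7% of all tested genes.

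Most markers of pericytes, smooth muscle and endothelium gave few RPM in both groups, Pecam1 and Eng apart, which depends also on the amplified segments. The 11 pericyte and smooth muscle markers summed to 53.9, 32.5 and 60.0 RPM in the controls (replicates 1, 2 and 3). In BMP9 replicates 4, 5 and 6 they summed to 33.9, 15.6 and 25.1 RPM. Of 3 tested, 2 were lower, against 22.5% of all tested genes. They were Cspg4 and Kcnj8 (log2 fold change -1.53 and -1.71, limma adjusted p = 0.022 and 0.0027). The smooth muscle genes Des and Cnn1 were at or near 0 throughout. Kdr, the main VEGF receptor of endothelium, fell from 11.5 ± 7.12 to 3.59 ± 1.02 RPM (-1.32, SE 0.43, limma adjusted p = 0.025) and Flt1, another, rose (1.83, SE 0.45, limma adjusted p = 0.0056). Cspg4, Kcnj8 and Kdr passed the filter through the control libraries alone, with every BMP9 value under 5 RPM. Fibroblast markers other than Thy1, which T cells also carry, summed to 47.1, 5.30 and 41.0 RPM in control and 49.1, 44.0 and 34.9 RPM in BMP9 libraries. With Thy1 the sum of all 11 fibroblast markers was 1547 ± 112 RPM among controls, against 378 ± 211 RPM under BMP9. Epithelial markers other than Cdh1 summed to 10.9 ± 3.11 RPM in controls and 14.3 ± 2.61 RPM with BMP9, and all 10 with Cdh1 to 182 ± 12 and 235 ± 49.8 RPM (SD, n = 3 each). Genes that respond to tissue dissociation summed to 4319 ± 584 and 5982 ± 956 RPM (SD, n = 3 each). The part of these cell types and of dissociation in the levels of the 10 genes was not tested.

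Likeness to other genes was measured for Sparc, taken because its mean RPM over the 6 libraries was the highest of the 10, which ranks no levels between genes. Among 8263 tested genes averaging 10 RPM or more, those whose log2(RPM + 1) followed it most closely over the 6 libraries were A230050P20Rik (Pearson's r 0.992), Ifrd2 (0.986), Slc35g1 (0.983) and Pdk3 (0.98). An r over 0.95 was reached by 41 genes. The 6 libraries fall into 2 groups that share run and cell make-up, so r is a measure of likeness only, with no test.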

How the data were processed

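Values in the deposited table are RPM, made by the authors from each library's reads, per the file headers. Libraries came from the Ion AmpliSeq mouse transcriptome panel, per the labels' protocols. Per the submitters' processing notes the build was mm10; the aligner and counting tool were not given in the sources used here. In each library every nonzero value was a whole number of reads within 0.05 reads (100% of values), which gave the depths and the reads for edgeR and DESeq2. limma-trend (limma 3.58.1, R 4.3.3) was run on log2(RPM + 1) wherever 3 or more libraries reached 5 RPM. Its trial on simulated data held no run difference and no shift in cell make-up, so it does not speak to these. Fold changes are BMP9 overexpression minus control.

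Alternatives were pseudocounts of 0.5 and 5, no filter, a mean of at least 20 RPM, TMM factors, quantile normalization, array weights, no variance trend, the run time stamp as covariate, the earlier stamp alone, each library left out, edgeR 4.0.16 (quasi-likelihood) and DESeq2 1.42.0. Named genes were the 10 members, the tested genes of the further basement membrane list, up to 4 tested genes with the smallest p of each other list, and the 5 genes most like the highest member. Some genes under this rule are not reported here. Other genes named from the lists were chosen after their values were seen. The members and lists were chosen with earlier results of these data known. Coordinates are from GENCODE M21. Intervals of read ratios are exact (Clopper-Pearson) and cover counting error only.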

Additional observations from a re-analysis of the deposited data

How the results depend on the processing

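No paired analysis was possible because the groups share no replicate number. Of the members tested, 8 in the main fit, 0 were called higher in any setting, against 12.7% of all tested genes in the main fit. With so few tested, 0 is not far from that share. Sparc was lower in all 18 alternatives, of which the earlier stamp alone and the stamp as a covariate give the same fold changes. The number of members called lower, 4 of 8 tested, was 4 with pseudocounts of 0.5 or 5 or no variance trend. It was 1 with no filter on low values, TMM factors, the earlier stamp alone, the stamp as a covariate and edgeR on recovered reads. It was 2 with a mean of at least 20 RPM (3 tested), quantile normalization and DESeq2 on recovered reads, and 6 with array weights. Leaving out 1 library gave 1 to 4, 1 where control replicate 2, control replicate 3, BMP9 replicate 5 or BMP9 replicate 6 was missing and 3 where control replicate 1 was.

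Of all genes, 1267 were called lower with TMM factors and 3351 with array weights, and 1093 to 2308 when 1 library was left out. For the other basement membrane list the number lower was 0 at a minimum mean of 20 RPM, which left none to test, 2 with array weights and 0 to 2 with 1 library left out. Folding and crosslinking genes called higher were 6 with TMM factors, edgeR or DESeq2 and 5 with array weights, and 2 to 4 with 1 library left out. Receptors called lower were 1 with no filter, a mean of at least 20 RPM, TMM factors, the earlier stamp alone, edgeR or DESeq2, 6 with array weights and 1 to 4 with 1 library left out. Interstitial matrix genes called higher were 3 with a mean of at least 20 RPM or the earlier stamp alone and 2 to 5 with 1 library left out, and 0 to 1 were lower with 1 library left out and 1 with array weights. The other 207 of these counts stayed within 1.5 times. No sign of a named gene's called value changed, and the causes of the differences between settings were not tested. Depth limits Lamb2, with 1 to 12 reads in a control library, and Col4a2 in BMP9 replicate 5, with 8.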
